A study of Mus musculus with 24 samples.

Results

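The genes described here encode high mobility group (HMG) chromatin proteins, and were taken as the rows named Hmga1, Hmga2, Hmgb1, Hmgb2, Hmgb3, Hmgn1, Hmgn2, Hmgn3 or Hmgn5, 9 of the 41710 genes in each of 2 tables. The cells were mouse embryonic fibroblasts (MEFs), grown from pooled embryos of embryonic days 14 to 16. Myc and Mlx loci were intact in wild-type (WT) cells, whereas MlxKO cells had lost Mlx, MycKO cells had lost Myc, and double-knockout (DKO) cells had lost both. Per the study's methods, the MEFs bore floxed alleles and a Cre recombinase fused to the estrogen receptor and driven by the ROSA26 promoter, and excision followed exposure to 500 nM 4-hydroxytamoxifen. The methods also name an ethanol vehicle, and the supplement describes immortalized WT controls kept without the drug. The sample labels give the same treatment protocol for every group. Against WT, drug exposure and genotype therefore cannot be told apart. Primary MEFs and MEFs immortalized with a lentiviral SV40 T-antigen and selected in blasticidin were each sequenced as 3 libraries per genotype, 24 in all. The comparisons ask how the loss of Myc, of Mlx, or of both changed these transcripts.

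HMG proteins are abundant non-histone components of chromatin and fall into families with different folds. HMGA proteins bind the minor groove of AT-rich DNA through AT-hooks and help to assemble enhancer complexes, and they are abundant in embryonic and transformed cells. HMGB proteins bend DNA with HMG boxes, whereas HMGN proteins bind the nucleosome core and compete with linker histones. Myc with Max, and Mlx with its Mondo family partners, recognize E-boxes with the core CACGTG.

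Values are CPM (read counts that the authors scaled by library size and between libraries), and differences are in log2(CPM + 1), tested with limma over 13101 genes in primary and 12880 genes in immortalized cells. A transcript is said to have risen or fallen where its Benjamini-Hochberg adjusted p was under 0.05. Libraries held between 15986856 and 20966163 reads on genes, and a member of the group had between 132 and 21900 reads in a library. All 9 genes passed the filter on low values in both tables. Nothing in the labels says that the libraries of a group came from separate cultures, so the p-values measure the spread between these libraries. In primary cells Myc was between 25.8 and 26.8 CPM in MycKO and 19.9 and 22.9 CPM in DKO against 89.8 to 100.1 CPM in WT cells, and Mlx was 13.5 ± 0.48 CPM in MlxKO and 11.2 ± 1.3 CPM in DKO against 23.7 ± 2.8 CPM in WT cells (SD, n = 3). In immortalized cells Myc was between 9.96 and 17.2 CPM in MycKO and 4.25 and 8.02 CPM in DKO against 39.9 to 177 CPM in WT cells. Mlx was there 13.8 ± 2.8 CPM in MlxKO and 16.8 ± 2.0 CPM in DKO against 23.0 ± 2.3 CPM in WT cells (SD, n = 3). Both targeted genes passed in each genotype that had lost them, with 1 exception: immortalized DKO libraries lay below WT for Mlx, but the difference of -0.44 ± 0.16 (SE, adjusted p = 0.069) did not pass in limma. Reads were counted over whole genes, including parts outside the floxed segments.

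Immortalized WT library 4 stood apart from the other WT libraries. Its Myc level was 177 CPM, against a lowest WT value of 39.9 CPM, and 1376 of 12880 genes lay more than 1 log2 unit from the mean of its group mates. Immortalized MycKO library 9 had 241 such genes, against 37 and 24 in the other MycKO libraries. Where omitting these libraries changed the call of an immortalized member, its value without them is given beside it. Omitting both together was a choice made after the data were seen. In either table, counts of members called with libraries omitted are given without the share over all genes. The 10 fibroblast markers summed to between 42753 and 46397 CPM in primary WT, 43844 and 48370 CPM in MlxKO, 55214 and 57558 CPM in MycKO and 57732 and 58686 CPM in DKO libraries, and 8 of 10 rose and 1 fell in MycKO and in DKO cells. They summed to between 25576 and 33710 CPM in immortalized WT and 26722 and 34569 CPM in immortalized DKO libraries. Immortalized MlxKO libraries summed to between 18480 and 22714 CPM and MycKO libraries to between 18011 and 24224 CPM. Primary libraries also held macrophage transcripts, whose 13 markers summed to between 351 and 692 CPM in WT, 378 and 473 CPM in MlxKO, 60.4 and 91.7 CPM in MycKO and 122 and 275 CPM in DKO cells. All 13 were detected in every primary library, all 13 fell in MycKO and in DKO cells, and none was called in MlxKO cells. Of 5 endothelial markers 3 could be tested in primary cells, and 2 fell in MycKO and in DKO cells, where the third rose in DKO, with sums of 24.4 to 25.96 CPM in WT, 15.4 to 17.7 CPM in MlxKO, 7.65 to 10.3 CPM in MycKO and 12.2 to 13.6 CPM in DKO libraries. Both epithelial markers tested, of 5 listed, fell in all 3 knockouts, with sums of 16.1 to 19.3 CPM in WT and 1.497 to 4.42 CPM in the other libraries. These marker levels also differed between genotypes in primary cells. Macrophage and endothelial sums were lowest in primary MycKO libraries, and fibroblast sums were highest in primary DKO libraries. The part of the markers in the HMG differences was not tested. In bulk RNA, fewer cells of a type and less RNA per cell cannot be told apart. In immortalized libraries the macrophage markers summed to between 5.80 and 12.4 CPM, with up to 9 of the 13 at 0.

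Promoters of 4 members are shown because they hold, or lack, the E-box core of the targeted factors or belong to the transcripts that changed most. Each runs from 250 bases before to 50 bases after the start of the GENCODE vM39 canonical transcript on GRCm39, 5′ to 3′ on the gene's strand. Capitals mark CACGTG, which reads the same on both strands, in the first 3 sequences, and CCAAT or its reverse complement ATTGG in the last. The Hmga2 window is chr10:120313046-120313345 (- strand), the Hmgn1 window chr16:95929182-95929481 (- strand), the Hmga1 window chr17:27775221-27775520 (+ strand) and the Hmgb2 window chr8:57964437-57964736 (+ strand).
Hmga2: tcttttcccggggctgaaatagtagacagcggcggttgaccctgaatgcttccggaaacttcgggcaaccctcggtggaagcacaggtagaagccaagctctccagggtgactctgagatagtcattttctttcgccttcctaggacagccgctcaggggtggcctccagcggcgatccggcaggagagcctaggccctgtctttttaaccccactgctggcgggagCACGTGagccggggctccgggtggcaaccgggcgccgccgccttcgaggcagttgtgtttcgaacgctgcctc
Hmgn1: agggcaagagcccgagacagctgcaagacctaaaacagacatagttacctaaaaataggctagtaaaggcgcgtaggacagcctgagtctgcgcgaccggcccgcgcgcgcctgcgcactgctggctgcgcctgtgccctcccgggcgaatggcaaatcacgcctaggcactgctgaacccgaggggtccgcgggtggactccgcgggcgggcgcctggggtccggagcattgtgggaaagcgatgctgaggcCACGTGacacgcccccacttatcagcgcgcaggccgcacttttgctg
Hmga1: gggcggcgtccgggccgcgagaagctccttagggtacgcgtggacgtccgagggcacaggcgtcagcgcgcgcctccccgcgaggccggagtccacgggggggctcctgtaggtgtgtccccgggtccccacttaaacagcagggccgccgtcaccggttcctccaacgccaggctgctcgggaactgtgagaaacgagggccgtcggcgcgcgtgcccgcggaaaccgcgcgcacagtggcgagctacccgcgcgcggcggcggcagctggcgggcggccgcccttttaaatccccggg
Hmgb2: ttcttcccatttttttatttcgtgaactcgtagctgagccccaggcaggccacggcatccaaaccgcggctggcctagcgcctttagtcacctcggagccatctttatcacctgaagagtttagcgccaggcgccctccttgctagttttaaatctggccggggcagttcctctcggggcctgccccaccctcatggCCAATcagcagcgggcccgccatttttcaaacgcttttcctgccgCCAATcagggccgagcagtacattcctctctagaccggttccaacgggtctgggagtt

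CACGTG began 23 bases before the start of Hmga2 and at base 4 of the transcript of Hmgn1, and was in 2 of the 9 windows, against 7.86% of 21590 promoters of the same length. The Hmga1 window did not hold these letters. CCAAT was in 4 of 9 windows (Hmgb1, Hmgb2, Hmgb3 and Hmgn5), against 40.0% of all promoters, and began 53 and 8 bases before the start of Hmgb2. The CACGTG and CCAAT matches did not fall in the same window. A match is a description of the letters only.

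Several members share sequence with other genes, and reads from such stretches may have been split. Of the 50-base stretches of Hmga1 transcripts (chr17:27775449-27782648, + strand, GENCODE vM39), 25.0% are also in Hmga1b (chr11:120653620-120655245, + strand). The open reading frames of 324 bases were identical, and the first 60 bases are given to show why reads from them cannot be assigned to either gene.
Hmga1 and Hmga1b: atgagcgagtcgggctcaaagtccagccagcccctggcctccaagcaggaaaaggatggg
Even so, Hmga1b held between 0.15% and 0.59% of the summed Hmga1 and Hmga1b CPM in the 24 libraries. Gm10282 held between 0.41% and 4.71% of its sum with Hmgn2. Hmgb1, Hmgb2 and Hmgb3 share between 11.2% and 16.3% of their stretches with other genes, most of which were not analysed here.

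Per kilobase of the canonical transcript, the HMGA genes led in primary WT cells, at 242 ± 3.5 CPM per kb for Hmga2 and 214 ± 38 CPM per kb for Hmga1 (SD, n = 3), values that did not differ beyond their spread. Hmgn1 (134 ± 7.8), Hmgn2 (127 ± 7.0) and Hmgb1 (121 ± 7.8 CPM per kb) followed, again with neighbors within their spread. Hmgb2 was at 22.4 ± 1.8, Hmgb3 at 7.73 ± 0.83, Hmgn3 at 6.53 ± 0.31 and Hmgn5 at 3.66 ± 0.47 CPM per kb. In immortalized WT cells Hmgn2 was first at 333 ± 10.4 CPM per kb, and Hmgb2 was at 49.4 ± 7.2 CPM per kb. The tables were normalized separately, so these levels are set side by side and were not tested.

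**Figure D1:**
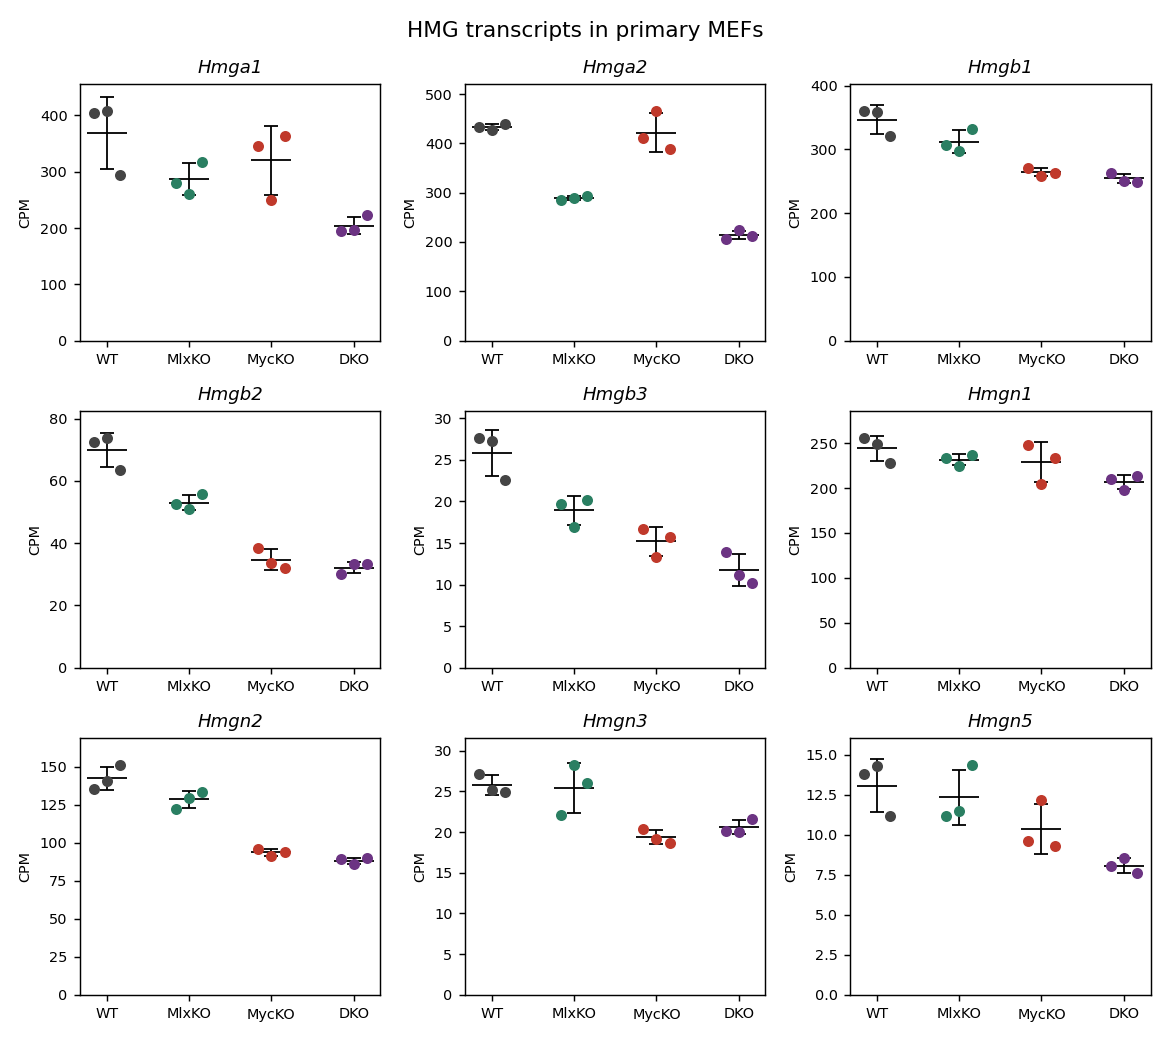
CPM (vertical axes, from 0) of the 9 HMG transcripts in primary MEFs of each genotype; points are libraries, and bars are the mean and SD of 3 libraries. In DKO cells all 9 transcripts lay below every WT library.

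In primary cells, loss of both Myc and Mlx was accompanied by lower levels of the whole group. All 9 members fell in DKO cells and no DKO library overlapped WT, where 49.5% of all genes tested changed, 25.5% fell and 60.8% had libraries that did not overlap. MycKO cells showed 5 of 9 lower (42.3% of all genes changed and 21.9% fell), and MlxKO cells 3 of 9 (8.88% changed and 5.14% fell), or 5 of 9 without WT library 3. The median difference of the 9 was -0.68 for DKO, -0.39 for MycKO and -0.15 for MlxKO, beside medians of all genes of 0.00. These 3 comparisons share the WT libraries. At 3 against 3 libraries, an exact permutation test of a single gene could not go below p = 0.1.

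Hmga2 differed in MlxKO and DKO cells but not detectably in MycKO cells in the primary table. Its level was 433, 427 and 440.1 CPM in WT, 286, 289 and 293 CPM in MlxKO, 412, 466 and 388 CPM in MycKO and 207, 224 and 212 CPM in DKO libraries. MycKO libraries spanned the WT values, MlxKO libraries lay below them, and DKO libraries were the lowest, with no overlap with any other genotype. By limma, Hmga2 differed from WT by -0.58 ± 0.06 (SE, adjusted p = 2.9e-05) in MlxKO and -1.01 ± 0.06 (SE, adjusted p = 3.7e-09) in DKO cells, and by -0.04 in MycKO cells, which did not pass (95% confidence interval -0.18 to 0.09). Loss of Mlx had a larger difference without Myc than with it: DKO against MycKO was -0.97 ± 0.06 (SE, adjusted p = 1.5e-08), and the Myc-by-Mlx interaction, the DKO-to-MycKO difference less the MlxKO-to-WT difference, was -0.39 ± 0.09 (SE, adjusted p = 0.0078) by limma. This was the 1 member of 9 called for the interaction in primary cells, where 13.5% of all genes were called and 6.07% had a negative term.

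Hmga1 was 405, 408 and 294 CPM in WT, 281, 261 and 318 CPM in MlxKO, 347, 251 and 364 CPM in MycKO and 194, 196 and 222 CPM in DKO libraries of primary cells. Single knockouts overlapped WT, which held 1 lower library, and DKO libraries lay below all others. By limma it fell by 0.84 ± 0.13 on the log2 scale in DKO cells (adjusted p = 7.3e-05), whereas the differences of -0.21 ± 0.13 (SE, adjusted p = 0.23) in MycKO and -0.35 ± 0.13 (SE, adjusted p = 0.11) in MlxKO did not pass. Both passed when WT library 3 was left out, at -0.36 and -0.51, and the MlxKO difference also passed without MycKO library 10 and in DESeq2 (-0.38). Between DKO and MycKO cells, 2 of 9 members fell, Hmga1 (-0.63) and Hmga2, where 21.5% of all genes changed and 11% fell, and 4 of 9 passed without MycKO library 10. The Hmga1 call was lost without a filter (adjusted p = 0.054 by limma). Hmgb3, at -0.35 (adjusted p = 0.053 by limma), did not pass there. It passed in DESeq2 (-0.37), with median-ratio scaling, and in limma without WT library 3, MycKO library 10 or DKO library 13.

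In MycKO cells Hmgb2 and Hmgb3 had the largest falls of the 9 members. Hmgb2, which is high in proliferating cells, was 72.5, 73.7 and 63.6 CPM in WT, 52.6, 50.8 and 55.7 CPM in MlxKO, 38.5, 33.5 and 32.1 CPM in MycKO and 30.0, 33.2 and 33.3 CPM in DKO libraries. MlxKO libraries lay between WT and the genotypes without Myc, which overlapped each other. Limma gave -0.99 ± 0.08 (SE, adjusted p = 1.4e-07) in MycKO, -0.39 ± 0.08 (SE, adjusted p = 0.0075) in MlxKO and -1.09 ± 0.08 (SE, adjusted p = 3.1e-08) in DKO cells. The MlxKO call for Hmgb2 was lost by limma without a filter on low values (-0.39, adjusted p = 0.0501), and when Hmgb2 was summed with all genes that share any of its stretches (-0.077, adjusted p = 0.54). Hmgb3, a family member known from stem and progenitor cells, was 27.6, 27.3 and 22.6 CPM in WT, 19.7, 16.9 and 20.1 CPM in MlxKO, 16.6, 13.3 and 15.7 CPM in MycKO and 13.9, 11.2 and 10.2 CPM in DKO libraries. All knockout libraries lay below WT, and limma gave -0.73 ± 0.12 (SE, adjusted p = 1.6e-04) in MycKO, -0.43 ± 0.12 (SE, adjusted p = 0.039) in MlxKO and -1.08 ± 0.12 (SE, adjusted p = 2.3e-06) in DKO cells. The MlxKO call for Hmgb3 was lost when any of 6 single libraries was omitted (WT library 1 or 2, MlxKO library 5, 6 or 7, or DKO library 14), and also without a filter and with library totals. Hmgb1, which also acts as an alarmin outside cells, was 360.2, 359 and 321 CPM in WT, 271, 258 and 263 CPM in MycKO and 263, 251 and 249 CPM in DKO libraries. Neither set of knockout libraries reached the lowest WT value, and limma gave -0.39 ± 0.06 (SE, adjusted p = 8.5e-05) and -0.44 ± 0.06 (SE, adjusted p = 1.9e-05). In MlxKO cells Hmgb1 was 307, 298 and 332 CPM and overlapped WT.

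Among the HMGN genes, Hmgn2 changed most. It was 136, 141 and 151 CPM in WT, 123, 129.7 and 134 CPM in MlxKO, 95.7, 91.4 and 94.3 CPM in MycKO and 89.1, 85.9 and 89.8 CPM in DKO libraries. Libraries without Myc lay well below those with it, and limma gave -0.60 ± 0.06 (SE, adjusted p = 8.9e-07) in MycKO and -0.68 ± 0.06 (SE, adjusted p = 1.3e-07) in DKO cells. The direction turned when Hmgn2 was summed with all 98 analysed genes that share any of its stretches, to 0.19 (adjusted p = 0.021) and 0.18 (adjusted p = 0.024) by limma. Only 1 of the 98 holds at least 10% of those stretches, and the sum with that gene alone did not turn the direction. Hmgn5, an X-linked member with a long acidic tail, was 13.8, 14.3 and 11.2 CPM in WT and 8.02, 8.56 and 7.60 CPM in DKO libraries, a difference of -0.63 ± 0.13 (SE, adjusted p = 7.1e-04) by limma. In MycKO cells it was 9.59, 12.2 and 9.32 CPM, and the difference of -0.31 ± 0.13 (SE, adjusted p = 0.064) did not pass. It passed in limma without WT library 3 (-0.41, adjusted p = 0.024), without MycKO library 10 (-0.42, adjusted p = 0.013) and with library totals (-0.41, adjusted p = 0.017). Hmgn3 was 27.1, 25.1 and 24.9 CPM in WT, 20.4, 19.2 and 18.7 CPM in MycKO and 20.2, 20.0 and 21.6 CPM in DKO libraries, and limma gave -0.39 ± 0.09 (SE, adjusted p = 0.0028) and -0.31 ± 0.09 (SE, adjusted p = 0.011). In MlxKO libraries, which overlapped WT, Hmgn5 was 11.2, 11.5 and 14.3 CPM and Hmgn3 between 22.1 and 28.2 CPM. Hmgn1 moved least, at 255, 249 and 228 CPM in WT and 210.0, 198 and 213 CPM in DKO libraries, with a limma difference of -0.24 ± 0.07 (SE, adjusted p = 0.01). In MlxKO libraries Hmgn1 was 233, 225 and 237 CPM and in MycKO libraries 248, 205 and 234 CPM, both overlapping WT. The DKO call was lost without WT library 1 (adjusted p = 0.052 by limma) or DKO library 14 (adjusted p = 0.053 by limma), and without a filter (adjusted p = 0.052 by limma), and the direction turned in the sum over all genes sharing a stretch (0.043).

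Set against MlxKO cells, which retain Myc, primary DKO cells had 8 of 9 members lower, where 49.1% of all genes changed and 25.9% fell. Hmgn1 was the exception, at -0.16 ± 0.07 (SE, adjusted p = 0.067) by limma. Hmgb2 (-0.70), Hmgb3 (-0.65), Hmgn5 (-0.55) and Hmgn2 (-0.54) had the largest differences. Hmga1 (-0.48), Hmga2 (-0.43), Hmgb1 (-0.29) and Hmgn3 (-0.29) fell less. Without a filter the Hmga1 call was lost (adjusted p = 0.086 by limma). The Hmgn3 call was lost without MlxKO library 6 or 7 or DKO library 13 or 14, its adjusted p in limma then being between 0.052 and 0.099. Hmgn2 turned to 0.17 in the sum over all genes sharing a stretch.

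**Figure D2:**
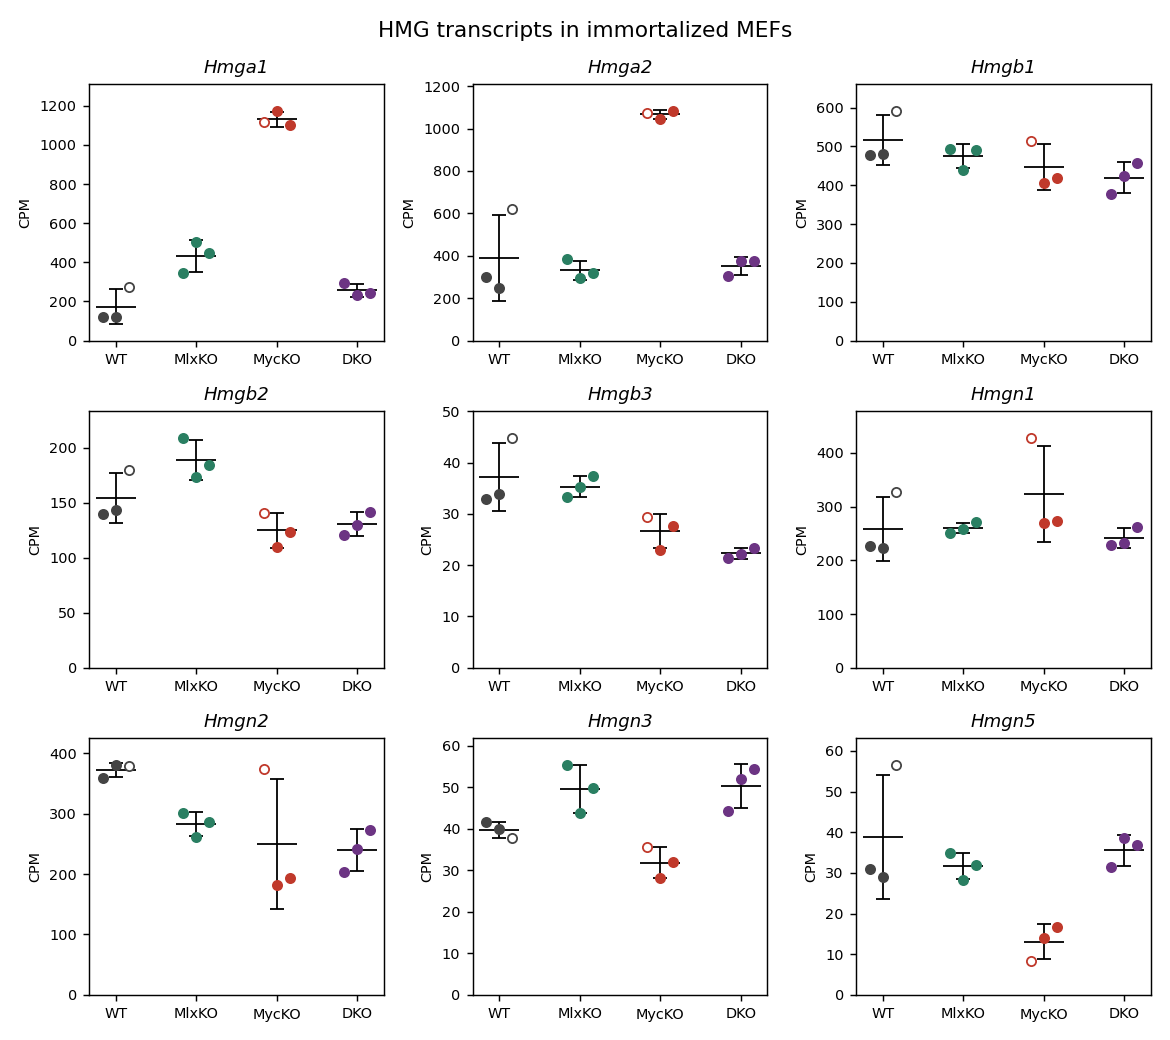
CPM (vertical axes, from 0) of the 9 HMG transcripts in immortalized MEFs; points are libraries, and bars are the mean and SD of 3 libraries, with WT library 4 and MycKO library 9 as open circles. Hmga1 and Hmga2 are higher in all MycKO libraries than in any other library, and Hmgn5 is lowest there.

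Immortalized cells differed in pattern, and no general fall was seen. The paper reports that primary MycKO and DKO cells were growth-arrested when sequenced, whereas all immortalized lines proliferated. It also reports that most immortalized MycKO cells had become tetraploid or pseudo-tetraploid. The part of these states in the HMG differences was not tested. In MycKO cells 2 of 9 members rose and 3 fell, where 48% of all genes changed, 24.4% rose and 23.5% fell. Without MycKO library 10, 3 of 9 members were called, and without WT library 4 or MycKO library 9, 7 of 9. As the share of all genes called may move with such omissions, these counts describe only how far the calls moved. MlxKO cells showed 1 of 9 changed (38.9% of all genes, with 19.1% higher) and DKO cells 1 of 9 (18.9%, with 8.51% lower), and both counts were 3 without the pair of libraries that stood apart. Across the 9, the median difference was -0.30 for MycKO, -0.06 for MlxKO and -0.08 for DKO. The 3 comparisons share the WT libraries, and primary and immortalized effects were not tested against each other.

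Hmga1 showed the largest differences. It was 119, 121 and 276 CPM in WT, 345, 501 and 449.7 CPM in MlxKO, 1119.6, 1173 and 1100.3 CPM in MycKO and 292, 233 and 244 CPM in DKO libraries, where the highest WT value is library 4. MycKO libraries exceeded all others, MlxKO libraries lay above WT, and DKO libraries overlapped WT only through library 4. By limma Hmga1 rose by 2.82 ± 0.26 (SE, adjusted p = 6.2e-06) in MycKO and 1.42 ± 0.26 (SE, adjusted p = 0.0019) in MlxKO cells, and its difference in DKO cells of 0.68 ± 0.26 (SE, adjusted p = 0.089) did not pass. Without WT library 4 these became 3.22 and 1.82 (adjusted p = 5.0e-07) by limma, and the DKO difference passed at 1.08 (adjusted p = 1.3e-04). Without MycKO library 9 they were 2.83, 1.42 and 0.68 (adjusted p = 0.1) by limma.

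Hmga2 was 302, 247 and 622 CPM in WT, 382, 296 and 317 CPM in MlxKO, 1072, 1045 and 1082 CPM in MycKO and 304, 377 and 375 CPM in DKO libraries. MycKO libraries lay close together and exceeded all others, and WT library 4 again stood above its mates. Limma gave 1.57 ± 0.26 (SE, adjusted p = 4.7e-04) in MycKO cells, which became 1.96 (adjusted p = 5.0e-08) without WT library 4. In MlxKO and DKO cells the differences of -0.12 and -0.04 did not pass and changed sign without that library, to 0.27 (adjusted p = 0.12) and 0.36 (adjusted p = 0.078) by limma.

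Loss of Mlx went with opposite differences of Hmga1 according to whether Myc was present. With Myc present Hmga1 rose in MlxKO cells, and in its absence Hmga1 fell, DKO against MycKO being -2.14 ± 0.26 (SE, adjusted p = 7.1e-05) by limma. Interaction terms were -3.57 ± 0.37 (SE, adjusted p = 2.3e-05) for Hmga1, -1.48 ± 0.37 (SE, adjusted p = 0.006) for Hmga2 and 1.65 ± 0.37 (SE, adjusted p = 0.0032) for Hmgn5, the 3 of 9 members called by limma, where 47.4% of all genes were called (23.7% positive and 23.8% negative), and 6 of 9 were called without both libraries that stood apart. For Hmga2, DKO against MycKO was -1.60 ± 0.26 (SE, adjusted p = 5.8e-04) by limma, and the DKO level was close to that of MlxKO cells (0.09). DKO against MlxKO for Hmga1 was -0.74 ± 0.26 (SE, adjusted p = 0.051) by limma, which passed without WT library 4 (adjusted p = 4.5e-04). It also passed in limma without WT library 2 or 3 or MlxKO library 5 (adjusted p between 0.040 and 0.043). The call was also made in DESeq2, with library totals and with only the groups compared.

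Hmgn5 took the opposite course to the HMGA genes in MycKO cells. Its level was 31.0, 28.9 and 56.4 CPM in WT, 34.8, 28.3 and 32.0 CPM in MlxKO, 8.33, 14.1 and 16.7 CPM in MycKO and 31.3, 38.6 and 36.9 CPM in DKO libraries. MycKO libraries lay below all others and did not overlap them. By limma the MycKO difference was -1.49 ± 0.26 (SE, adjusted p = 6.7e-04), or -1.19 (adjusted p = 3.3e-04) without WT library 4, -1.22 (adjusted p = 0.0027) without MycKO library 9 and -0.92 (adjusted p = 9.7e-05) without both, and DKO exceeded MycKO by 1.43 ± 0.26 (SE, adjusted p = 0.0013). In total 4 of 9 members differed between DKO and MycKO cells (29.4% of all genes, with 14.8% higher and 14.6% lower), namely Hmga1, Hmga2, Hmgn5 and Hmgn3.

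Hmgn3 was 41.5, 39.9 and 37.8 CPM in WT, 55.2, 43.7 and 49.7 CPM in MlxKO, 35.6, 28.0 and 31.9 CPM in MycKO and 44.2, 52.0 and 54.3 CPM in DKO libraries. DKO libraries lay above MycKO libraries without overlap, by 0.64 ± 0.13 (SE, adjusted p = 0.0024) in limma. Against WT, Hmgn3 differed by 0.32 for DKO, 0.31 for MlxKO and -0.32 for MycKO, and no difference passed with all libraries. The MycKO difference passed in limma without WT library 4, at -0.35 (adjusted p = 0.042), without MycKO library 9, at -0.40 (adjusted p = 0.031), and without both, at -0.43 (adjusted p = 0.014). The MlxKO difference passed with library totals (0.47), and the interaction term of 0.33 passed without both libraries, at 0.45 (adjusted p = 0.036) in limma. Hmgn2 was 359, 379.9 and 379 CPM in WT, 301, 262 and 286 CPM in MlxKO, 374, 182 and 193 CPM in MycKO and 204, 241 and 273 CPM in DKO libraries. MycKO library 9 sat at the WT level while the other MycKO libraries were the lowest of all. Its limma difference in MycKO cells was -0.65 ± 0.22 (SE, adjusted p = 0.027), or -0.99 (adjusted p = 1.7e-04) without library 9, and the interaction term of 0.41 passed without library 9, at 0.74 (adjusted p = 0.0047) by limma. The MycKO call was lost in edgeR (adjusted p = 0.056) and when WT library 2 or 3 or MycKO library 10 or 11 was omitted. DKO against MycKO for Hmgn2 was 0.01, which did not pass, and 0.34 (adjusted p = 0.027) by limma without both libraries that stood apart. In MlxKO and DKO cells Hmgn2 libraries lay below WT, and its differences of -0.40 and -0.65 did not pass, but without library 9 limma gave -0.40 (adjusted p = 0.015) and -0.65 (adjusted p = 0.0031).

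Hmgn1 was 227, 222 and 327 CPM in WT and 427, 269 and 274 CPM in MycKO libraries, with the highest values in WT library 4 and MycKO library 9. In MlxKO libraries it was 252, 258 and 271 CPM and in DKO libraries 229, 233 and 262 CPM, within the range of WT. The limma difference of 0.31 ± 0.18 (SE, adjusted p = 0.18) did not pass, and single omissions moved it both ways. By limma it was 0.49 (adjusted p = 0.021) without WT library 4, 0.09 (adjusted p = 0.65) without MycKO library 9 and 0.27 (adjusted p = 0.024) without both. DKO against MycKO was -0.39 ± 0.18 (SE, adjusted p = 0.13) by limma, or -0.39 (adjusted p = 0.046), -0.17 (adjusted p = 0.46) and -0.17 (adjusted p = 0.13) in the same order. The interaction term of -0.42 ± 0.26 (SE, adjusted p = 0.20) in limma likewise passed without WT library 4, at -0.60 (adjusted p = 0.031), but not without MycKO library 9, at -0.20 (adjusted p = 0.44). Without both it passed in limma, at -0.38 (adjusted p = 0.015).

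Of the HMGB genes in immortalized cells, Hmgb3 changed most. It was 33.0, 33.8 and 44.7 CPM in WT, 33.3, 35.3 and 37.4 CPM in MlxKO, 29.4, 23.0 and 27.7 CPM in MycKO and 21.4, 22.1 and 23.4 CPM in DKO libraries. Libraries without Myc lay below all libraries with it. Limma gave -0.46 ± 0.14 (SE, adjusted p = 0.017) in MycKO and -0.70 ± 0.14 (SE, adjusted p = 0.0052) in DKO cells, or -0.32 (adjusted p = 0.042) and -0.56 (adjusted p = 0.0051) without WT library 4. Without MycKO library 10 the MycKO call was lost (-0.36, adjusted p = 0.074 by limma). Hmgb2 was 140.0, 143 and 180.3 CPM in WT, 209, 174 and 184 CPM in MlxKO, 141, 109.9 and 124 CPM in MycKO and 121, 129.6 and 142 CPM in DKO libraries. Against WT no Hmgb2 difference passed with all libraries, limma giving 0.29 ± 0.13 (SE, adjusted p = 0.093) in MlxKO, -0.30 ± 0.13 (SE, adjusted p = 0.074) in MycKO and -0.23 ± 0.13 (SE, adjusted p = 0.23) in DKO cells. The MlxKO difference passed without WT library 4, at 0.41 (adjusted p = 0.015), and without both, at 0.41 (adjusted p = 0.0044) in limma. The MycKO difference passed without MycKO library 9, at -0.39 (adjusted p = 0.036) in limma, but was -0.19 (adjusted p = 0.21) without WT library 4. DKO fell below MlxKO cells by limma at -0.53 ± 0.13 (SE, adjusted p = 0.01) for Hmgb2 and -0.64 ± 0.14 (SE, adjusted p = 0.0048) for Hmgb3, the 2 of 9 members called there (30.1% of all genes, with 13.9% lower). Hmgb1 was 477, 481 and 591 CPM in WT and 378, 423 and 458 CPM in DKO libraries, and its difference of -0.30 ± 0.13 (SE, adjusted p = 0.13) did not pass in limma. It was 494, 438 and 491 CPM in MlxKO and 514, 406 and 418 CPM in MycKO libraries, which overlapped WT.

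**Figure D3:**
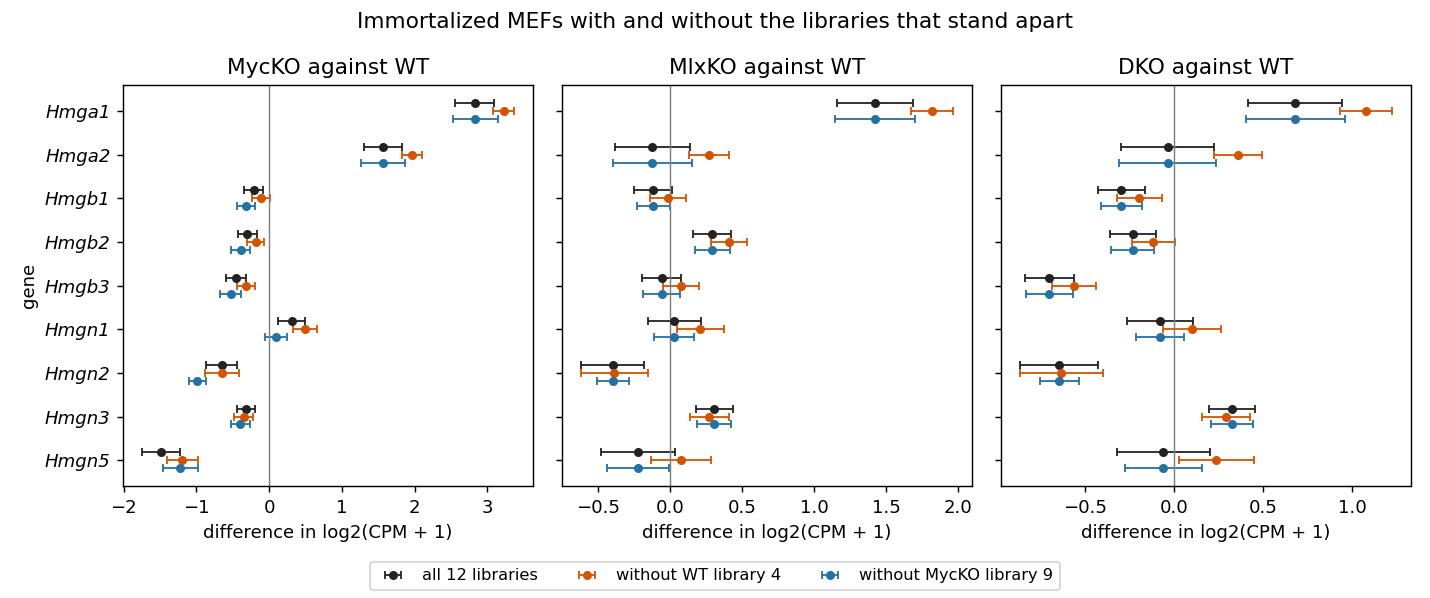
Differences in log2(CPM + 1) from WT (horizontal axes) of the 9 HMG transcripts in immortalized MEFs, with all 12 libraries and without WT library 4 or MycKO library 9; bars are the standard error. Hmga1 in DKO cells moves from 0.68 to 1.08 without WT library 4, and Hmgn2 in MycKO cells from -0.65 to -0.99 without MycKO library 9.

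Other chromatin and proliferation genes were read from lists chosen with earlier results known, and are given by counts, medians and summed levels, with the limma values of the genes named. In primary cells all 15 proliferation markers fell in MycKO and in DKO cells and 13 fell in MlxKO cells, where 21.9%, 25.5% and 5.14% of all genes fell, led in MycKO by Mcm6, a subunit of the replicative helicase (-0.96 ± 0.07 SE, limma adjusted p = 2.1e-08). Their summed level was 1625 to 1708 CPM in WT, 1304 to 1355 CPM in MlxKO, 960 to 1124 CPM in MycKO and 742 to 782 CPM in DKO libraries. Mean levels of Hmgb1, Hmgb2, Hmgb3, Hmgn1, Hmgn2 and Hmgn5 fell in this order of genotypes. Those of Hmga1 and Hmga2 were lower in MlxKO than in MycKO cells, and that of Hmgn3 was lowest in MycKO cells. The part of proliferation in the HMG differences was not tested. In immortalized cells the sums were 3331 to 4079, 3150 to 3376, 3272 to 3364 and 3269 to 3475 CPM in the same order, and 1 of 15 markers changed in MycKO cells, Aurkb, a mitotic kinase, which rose (0.47). In immortalized MlxKO cells 2 of 15 rose and 3 fell, and in DKO cells none was called. Over all genes 48% changed in immortalized MycKO, 38.9% in MlxKO and 18.9% in DKO cells.

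Of 18 genes of the SET complex and nucleosome chaperones, 16 fell in primary MycKO, 15 in DKO and 1 in MlxKO cells, with medians of -0.58, -0.77 and -0.06, where 21.9%, 25.5% and 5.14% of all genes fell, so that the MlxKO count was close to the share over all genes. Npm1, the nucleolar chaperone nucleophosmin, had the lowest adjusted p (-0.88 ± 0.07 SE, limma adjusted p = 3.9e-08). In immortalized MycKO cells 10 fell and 2 rose (23.5% and 24.4% of all genes), among them Atrx, a chromatin remodeler (-1.09), and Chaf1a, a subunit of chromatin assembly factor (0.64). Of 7 linker histones, which compete with HMG proteins for nucleosomes, 5 could be tested. In primary cells 2 rose in MycKO, with H1f2 at 0.80, 4 rose in DKO and 1 rose in MlxKO cells, and none fell, where 20.4%, 24% and 3.75% of all genes rose. In immortalized cells 3 fell in MycKO, with H1f4 at -0.96, 2 rose in MlxKO and 1 rose in DKO cells, where 23.5% fell, 19.1% rose and 10.4% rose over all genes.

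Genes whose log2(CPM + 1) followed each member most closely were found among 12402 genes by the mean of the Pearson correlations over the 12 libraries of each table, which share genotype differences and depth; they are descriptions. For Hmga2 they were Cd44, a hyaluronan receptor (mean r = 0.945), and Dusp6, a phosphatase of ERK (0.932), and for Hmga1 Taldo1 and Ube2s (both 0.90). Ribosomal and translation genes were nearest to Hmgb1 (Rpl7, 0.960), Hmgb3 (Eif4a1, 0.946) and Hmgn2 (Rps3a1, 0.952). Dkc1 was nearest to Hmgb2 (0.929), Tma7 to Hmgn1 (0.919), Srek1 to Hmgn5 (0.918) and the macrophage marker Cd68 to Hmgn3 (0.876).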

How the data were processed

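Poly-A RNA had been made into directional libraries. Reads were aligned by the authors to GRCm39 in CLC Genomics Workbench and counted for 41710 genes, and the signal they deposited, named CPM in the headers, forms 1 table for primary and 1 for immortalized MEFs. How it was scaled between libraries is not given in the sources used here. Library sums lay between 915691 and 1077213, so values were used as deposited. All nonzero values were whole multiples (tolerance 0.01) of 1 read, which gave 15986856 to 20966163 reads per library. The floor of 3 reads was 0.145 to 0.196 CPM and covers counting error only. All columns were used.

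A gene was tested when 3 or more libraries reached 1 CPM. Its log2(CPM + 1) was fitted in limma 3.58.1 (R 4.3.3) over the 4 genotypes of a table, with a variance prior that follows the mean, 2-sided, and Benjamini-Hochberg adjusted at 0.05. The tests were tried on simulated data. Alternatives were recovered reads in edgeR 4.0.16 or in DESeq2 1.42.0, other scalings, filters and pseudocounts, sums with copies, and omission of each library. Omitting a pair of libraries was chosen after the data were seen. Tables were never tested against each other. The members and lists were chosen with earlier results of these data known. Named genes were the members, Myc and Mlx, the called genes with the lowest adjusted p of each list in MycKO cells, and the closest correlates. Places are those of GENCODE vM39, and promoters are set from the starts of its canonical transcripts, for 9 of 9 members. Plots used matplotlib 3.10.9 (Python 3.11.15).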

Additional observations from a re-analysis of the deposited data

Results flagged for a closer look

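The difference made by Mlx loss depended on Myc for 4 member and table pairs, by the limma interaction term. It was -0.39 for Hmga2 in primary cells, and -3.57 for Hmga1, -1.48 for Hmga2 and 1.65 for Hmgn5 in immortalized cells. Over all genes, 13.5% were called for this term in primary cells and 47.4% in immortalized cells. The share of members called exceeded neither.

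For 2 members a comparison went one way in every primary library and the other way in every immortalized library. Hmgn3 in DKO against WT cells differed by -0.31 in primary and 0.32 in immortalized cells, and Hmgn5 in DKO against MycKO cells by -0.32 in primary and 1.43 in immortalized cells. The difference between the tables was not tested, and of these values the first and the last passed in their own table. The 2 members were picked from the whole group, and the share of all genes with such opposite differences is not given here. For primary DKO against WT alone, 60.8% of all genes had libraries that did not overlap. Whether the 2 members stand out from other genes is therefore not known.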

How the results depend on the processing

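Of 44 member differences called by limma, 36 kept their direction and call under every alternative other than the sum over all genes that share any stretch, and 39 when the fit without a filter was also set aside. The cause of the changes below was not tested unless stated. No paired analysis was possible because no label links the numbers in the column names to replicates.

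Without a filter, members called were 1 for primary MlxKO against WT and 1 for DKO against MycKO. With only the groups compared, they were 3, 2 and 2 for immortalized MycKO, MlxKO and DKO against WT, and DESeq2 gave 2 for DKO. Scaling to library totals gave 3 for immortalized MlxKO against WT and 4 for DKO against MlxKO, where 40.8% and 33.7% of all genes were called. The other counts in this paragraph stand without a share over all genes. Without WT library 4 and MycKO library 9, they were 3 for immortalized MlxKO, 3 for DKO and 6 for the interaction. Omitting 1 library at a time gave 2 to 5 for primary MlxKO against WT, 2 to 4 for DKO against MycKO and 1 to 2 for the interaction, and in immortalized cells 3 to 7 for MycKO, 1 to 2 for MlxKO and 1 to 2 for DKO against WT.

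Summing a member with all genes that share a stretch gave 2 members for immortalized MlxKO against WT and 1 for DKO against MlxKO, and turned several differences. Such a sum added 98 genes to Hmgn2, 325 to Hmgn1 and 2 to Hmgb2. In primary cells Hmgn2 became 0.19 in MycKO (adjusted p = 0.021), 0.18 in DKO (adjusted p = 0.024) and 0.17 in DKO against MlxKO (adjusted p = 0.034), each called by limma in the other direction, Hmgn1 became 0.043 in DKO, and the Hmgb2 interaction -0.023. In immortalized cells Hmgn1 became -0.14 in MycKO, 0.087 in DKO against MycKO and 0.30 for the interaction, Hmgb2 became -0.37 in MlxKO, 0.15 in DKO against MlxKO and 0.51 for the interaction, and Hmgn2 became 0.13 in DKO against MlxKO. Sums with copies holding at least 10% of the stretches turned none of these.

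Differences that did not pass also turned. Primary Hmga2 in MycKO ranged from -0.12 to 0.014 over single omissions. Immortalized Hmga2 ranged from -0.39 to 0.27 in MlxKO and from -0.31 to 0.36 in DKO, and Hmgn5 in MlxKO from -0.40 to 0.075. Without both libraries these 3 were 0.27, 0.36 and 0.075, and with library totals Hmga2 in MlxKO was 0.049.

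Over all genes, scaling to library totals moved the median difference to 0.16 in immortalized MlxKO against WT and to -0.16 and -0.12 in DKO against MlxKO of immortalized and primary cells. The share of calls that were higher went from 49.0% to 69.9% in immortalized MlxKO, and in primary cells from 48.3% to 31.4% in MycKO and from 48.5% to 37.2% in DKO. Genes called without a filter were 535 against 1164 for primary MlxKO, 1042 against 1774 for the primary interaction, 3276 against 5014 for immortalized MlxKO, 1185 against 2434 for DKO and 2535 against 3879 for DKO against MlxKO.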

Other observations

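Receptors and partners of extracellular HMGB1 were called in both directions. In MycKO cells 42.3% of all genes were called in the primary table (21.9% lower and 20.4% higher) and 48% in the immortalized table (23.5% lower and 24.4% higher), and the counts of each list here and below stand beside these shares. In primary MycKO cells 5 of 9 tested fell and 2 rose, among them Cd24a, a surface glycoprotein (-1.46), and Thbd, the thrombin receptor thrombomodulin (0.48). In immortalized MycKO cells 3 of 8 fell and 2 rose, with Thbd at -1.44 and Havcr2 at 1.25.

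Of genes around Lin28 and the let-7 microRNAs, which are known to repress Hmga2, 8 of 10 could be tested. In primary MycKO cells 3 of 8 fell, near the share of all genes called, with Dicer1, which processes microRNA precursors, at -0.27. In immortalized MycKO cells 3 rose and 2 fell of 8, with Arid3b at 1.30 and Igf2bp3 at -0.63. Genes of senescence-associated heterochromatin showed 8 of 15 lower and 2 higher in primary MycKO cells, with Lmnb1, a nuclear lamin, at -0.68 and Cdkn2b, an inhibitor of cyclin-dependent kinases, at 1.01, and 5 of 15 lower and 4 higher in immortalized MycKO cells, with Macroh2a2 at -0.65 and Cdkn2b at 0.84. Other HMG-box proteins showed 3 of 24 lower and 4 higher in primary MycKO cells, fewer than the share over all genes, with Ssrp1, a subunit of the FACT histone chaperone, at -0.42 and Tcf7l1 at 0.55, and 11 of 23 lower and 3 higher in immortalized MycKO cells, with Sox5 at -3.86 and Sox11 at 1.19.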
